A study of Mus musculus with 24 samples.

Results

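The response of wild-type (WT) naïve CD4 T cells to 24 hours on plates coated with anti-CD3 and anti-CD28 was measured on 6 arrays, out of 24 in the series. These are the 3 arrays of stimulated WT naïve cells and the 3 arrays of resting WT naïve cells, each labelled as replicates A, B and C. The resting cells were isolated with a kit for naïve CD4+ cells, to a stated purity of 95%, from spleens and lymph nodes of mice aged 4 to 6 weeks. For stimulation the same kind of cells was placed on anti-CD3 (1 ug/ml) and anti-CD28 (2 ug/ml). The labels give no time in culture for the resting cells and list no naïve cells cultured without the antibodies. Effects of the antibodies, of 24 hours in culture and of recent isolation therefore cannot be told apart, and "after stimulation" below takes in all of them. The labels call the strain Balb/c, while the methods of the study give a mixed background for the mice carrying the BAF180 mutation before their cross to CD4-Cre mice. Responses of 2 other kinds of cells are used below for comparison, each from 6 separate arrays. The first are naïve cells of BAF180-deficient mice (KO), in which a floxed Pbrm1 gene is deleted by Cre driven by the Cd4 promoter and enhancer, and which had the same treatment. The others are WT Th2 cells, grown from naïve cells on the same antibodies with IL-4 (10 ng/ml), anti-IFN-gamma (10 ug/ml) and IL-2 (100 U/ml), and treated with PMA (50 ng/ml) and ionomycin (500 ng/ml) for 1.5 hours. Each group has 3 arrays. The labels do not say which mouse gave which array, so that p-values measure the spread between these samples.

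A naïve T cell is a small, non-dividing lymphocyte that circulates between blood and lymph nodes. Its quiet state is kept by factors such as KLF2 and by signals through the IL-7 receptor. Engagement of the T cell receptor, mimicked by anti-CD3, together with costimulation through CD28 makes the cell grow, take up nutrients, build ribosomes, enter the cell cycle and make cytokines. The first wave of this programme (immediate early genes such as Fos) is over within hours, and division begins about a day after stimulation.

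The values are log2 normalized intensities, on which a probe without signal lies near 4.2. A gene is represented by its brightest probe, and levels are compared between samples for the same probe only. Between 8047 and 9498 probes were detected on the resting WT arrays and between 9351 and 10179 on the stimulated ones, and the mean intensity before normalization was 121 to 178 at rest and 204 to 292 after stimulation. The 2 groups therefore differed in overall brightness, which the quantile step of the normalization removes. Among the resting arrays, replicate C stood apart in red cell and neutrophil transcripts. Its level of Hba-a1, an alpha-globin, was 13.55, against 11.21 and 8.28 on replicates A and B. S100a9 was at 7.90, against 6.29 and 5.41. The counts of called genes and the differences of Asns, Irf4, Frat2 and Hba-a1 are also given without replicate C.

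The labelled cell type was checked against its markers. All 11 tested T cell markers were detected on all 6 arrays, among them Cd3d with 10.84, 11.34 and 11.08 at rest and 10.86, 11.11 and 10.62 after stimulation. Of the 11, 10 had a negative difference between stimulated and resting cells, with a median of -0.60 on the log2 scale. Cd3g alone passed both thresholds used below. Others, such as Cd3e (-0.93, adjusted p = 0.0029) and Lck (-0.89, adjusted p = 0.0063), did not reach 2-fold. The probe for Cd4 was dim, with values from 5.15 to 5.76 at rest and from 4.77 to 5.25 after stimulation. Markers of other cells were also present at rest. The 11 tested myeloid markers had a summed linear level of 2708 to 7520 on the resting arrays and 266 to 323 on the stimulated arrays, the 11 B cell markers 6738 to 9231 and 767 to 1305, and the 7 red cell and platelet markers 440 to 16412 and 140 to 418. The summed level of the T cell markers was 15890 to 17108 at rest and 8822 to 10360 after stimulation. At rest a single gene made up most of the B cell sum, Cd74, and most of the red cell and platelet sum, Hba-a1. Cd74 had 12.55, 12.14 and 12.60 at rest. The next brightest B cell marker was Fcmr. Both were also present in resting WT Th2 cells, with means of 8.49 for Cd74 and 8.50 for Fcmr. The defining B cell marker Ms4a1 was detected on none of the 6 arrays, with 4.22 to 4.37 at rest. Fewer cells of a type and less RNA per cell cannot be told apart in such bulk samples.

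Of 10418 genes tested, 1258 were higher and 1149 lower after stimulation, at an adjusted p below 0.05 and at least a 2-fold difference, which is 12.1% and 11% of the genes. Genes of amino acid metabolism and DNA replication were among the largest rises, and the lost genes led with macrophage transcripts, T cell quiescence factors and immediate early genes. The falls were larger than the rises. A difference of over 8-fold was seen for 33 higher and 119 lower genes, and one of over 16-fold for 5 higher and 39 lower genes. No resting array detected 163 of the higher genes, and no stimulated array detected 195 of the lower ones. In 1239 of the higher and 1124 of the lower genes the 3 stimulated and 3 resting values did not overlap. Without resting replicate C the counts were 1303 higher and 1238 lower. The split between higher and lower depended on the scaling. With each array centred on its median in place of the quantile step, 2492 genes were higher and 366 lower, so that 87.2% of the calls were rises in place of 52.3%, and the median difference over all genes moved from -0.01 to 0.25. That median is taken over all 25697 probes, of which at most 10179 were detected on a single one of these arrays. Before normalization the median intensity was 41.7 to 44.6 at rest and 42.8 to 44.9 after stimulation. Median centring therefore does not bring the detected probes to a common brightness.

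**Figure D1:**
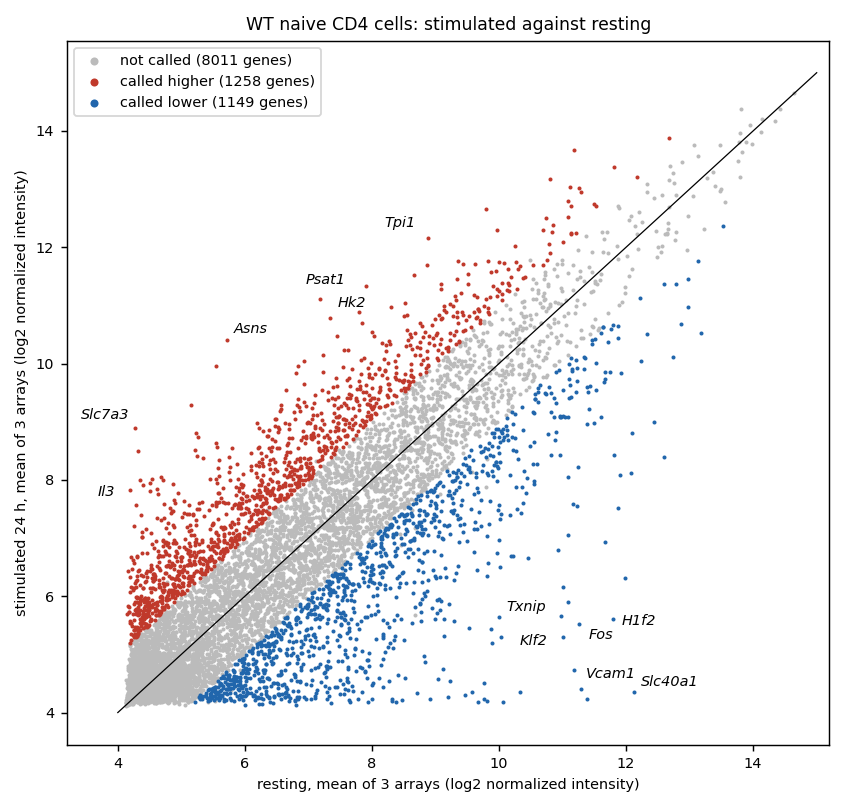
Mean log2 normalized intensity of each tested gene on the 3 resting arrays (x axis) and the 3 stimulated arrays (y axis) of WT naïve CD4 cells, with the line of equal values. The 1149 genes called lower reach further from the line than the 1258 genes called higher, and a row of them lies at the background of about 4.2 after stimulation.

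The gene lists described below were read against these shares of 12.1% and 11%. The plot of the lists orders all 36 of them by their median difference, from DNA replication at 1.68 down to naïve T cell quiescence and homing genes at -1.61.

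**Figure D2:**
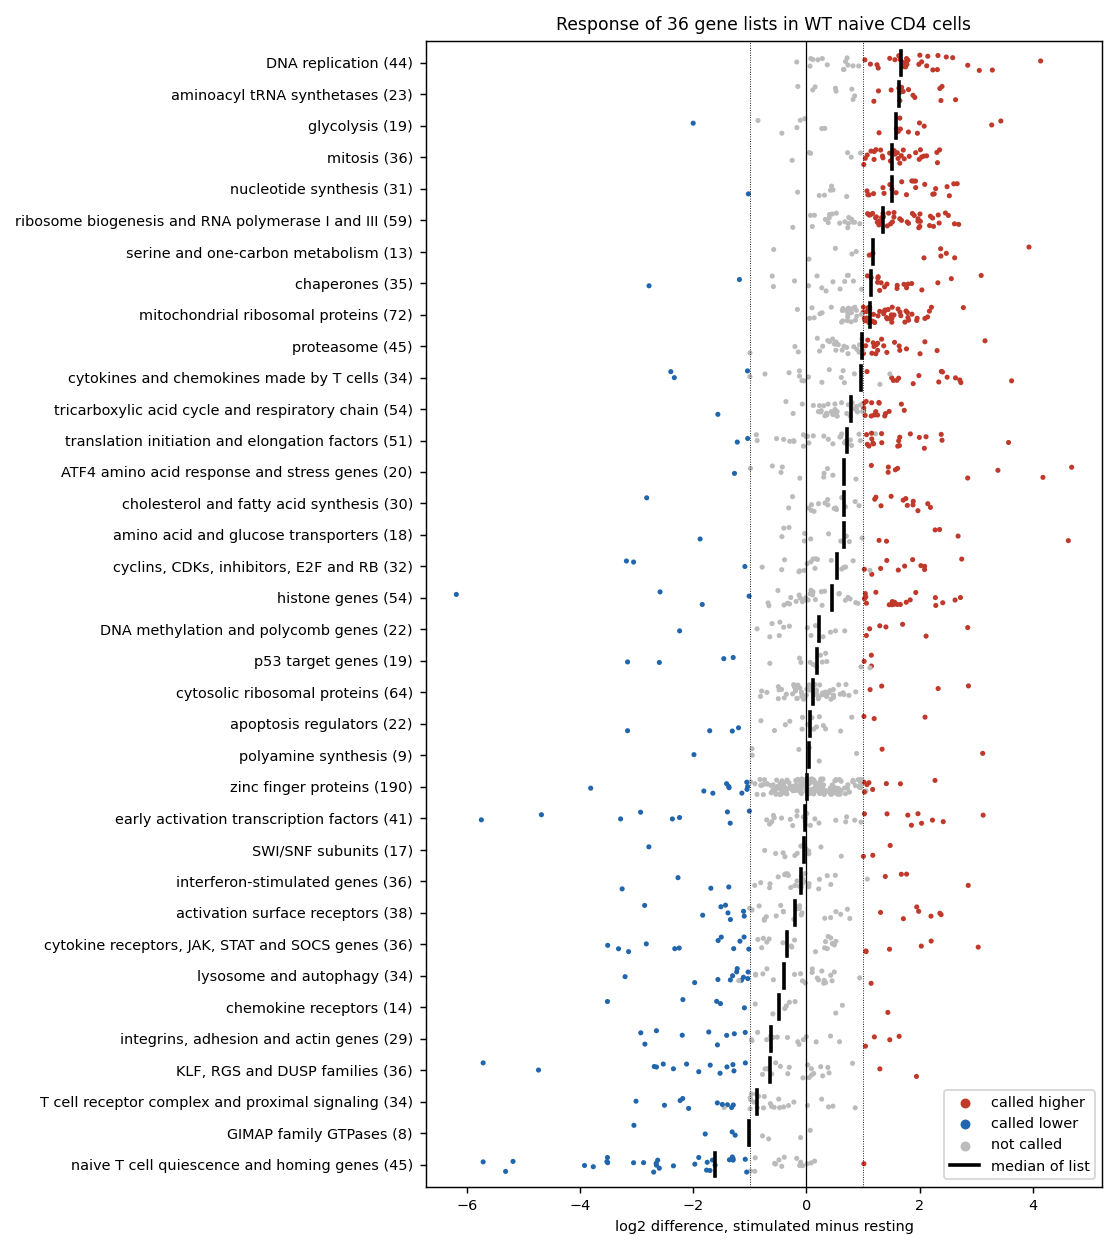
Log2 difference, stimulated minus resting, of every tested gene of 36 lists in WT naïve CD4 cells, with the number tested in parentheses. Points are genes, coloured by call, the black bar is the list median and dotted lines mark 2-fold. Lists of replication, tRNA synthetases, glycolysis and mitosis have medians above 1.5, and the quiescence list lies at -1.61.

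Transcripts for the supply of amino acids held the largest rise on the arrays. Asns makes asparagine. Its values were 4.59, 4.83 and 7.73 on resting replicates A, B and C and 10.00, 10.57 and 10.64 on the stimulated ones, a log2 difference of 4.69 ± 0.53 (SE), adjusted p = 4.75e-07. Resting replicate C was far above the other resting arrays, yet all 3 stimulated values were above it, and without that array the difference was 5.69. Slc7a3, a transporter of cationic amino acids, was detected on no resting array, with 4.23, 4.22 and 4.35, and rose to 8.99, 9.02 and 8.67, at least 16.4-fold (adjusted p = 1.11e-10). Bcat1, which transfers the amino group of branched-chain amino acids, rose from 5.34, 5.51 and 5.81 to 10.28, 9.85 and 9.72, a difference of 4.40 ± 0.26 (SE, adjusted p = 4.45e-11). The groups were far apart for both genes, and the replicates of each group lay close together.

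Chac1, which degrades glutathione, was likewise detected on no resting array and rose from 4.27, 4.24 and 4.46 to 8.27, 8.43 and 8.80, at least 12.5-fold (adjusted p = 2.03e-09). It belongs to the genes driven by ATF4, a transcription factor made when amino acids are short. Of the 20 tested genes of the ATF4 list, 9 rose, 1 fell and the median difference was 0.67. Trib3, a pseudokinase that feeds back on ATF4, rose by 3.38 ± 0.67 and Atf5, a related factor, by 2.85 ± 0.34. Stress genes of the same list did not pass, among them Ddit3 with a difference of -0.43 and Hspa5, the chaperone of the endoplasmic reticulum, with 0.31 and detected on 1 of the 6 arrays. Herpud1, which acts in the disposal of misfolded proteins there, fell by 1.27 ± 0.20. Atf4 itself had a difference of 0.88, under the 2-fold threshold.

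Serine and one-carbon genes rose in 8 of 13 cases and fell in none, with a median of 1.17. Psat1 of serine synthesis went from 6.89, 7.22 and 7.44 to 10.43, 11.49 and 11.43, a difference of 3.93 ± 0.25 (adjusted p = 1.32e-10). Mthfd2, the mitochondrial folate enzyme, rose by 2.62 ± 0.31, Shmt2, which splits serine into glycine and a one-carbon unit, by 2.47, and Phgdh, the first step from glycolysis to serine, by 2.38 ± 0.45. Of 18 amino acid and glucose transporters 6 rose, among them Slc7a5, the large neutral amino acid transporter, by 2.68 ± 0.20 and the glucose transporter gene Slc2a1 by 1.28. Slc38a2, a carrier of small neutral amino acids, fell by 1.88 ± 0.49. Aminoacyl tRNA synthetases, which charge tRNAs, rose in 15 of 23 cases and fell in none, with a median of 1.63, led by Iars (2.64 ± 0.28), with Aars at 2.36 ± 0.22. The list holds Eef1e1 (2.40) and Aimp2 (2.38), scaffold parts of the synthetase complex. Farsa, with -0.15, was the lowest of that list.

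Promoter letters were read for these genes, from 250 bases before to 50 bases after the annotated start (RefSeq, GRCm38.p6), and 8258 of the 10418 tested genes had such a window. The letters TGATGNAA, an element bound by ATF4 with a C/EBP partner, searched on both strands, were found in 5 of 19 windows of the ATF4 list (26.3%) and in 5 of 16 windows of the tRNA synthetases (31.2%), against 2.57% of all windows, 2.92% of those of genes called higher and 2.71% of those called lower. The ATF4 list was drawn up as genes of the ATF4 response, so that its share describes the list and not the response measured here. In the synthetase list the windows of Aars, Gars, Iars, Tars and Yars held them. The windows of Asns (chr6:7693160-7693459, minus strand) and Chac1 (chr2:119350992-119351291, plus strand) are shown because these genes led the list, with the element in capitals, on either strand.
Asns: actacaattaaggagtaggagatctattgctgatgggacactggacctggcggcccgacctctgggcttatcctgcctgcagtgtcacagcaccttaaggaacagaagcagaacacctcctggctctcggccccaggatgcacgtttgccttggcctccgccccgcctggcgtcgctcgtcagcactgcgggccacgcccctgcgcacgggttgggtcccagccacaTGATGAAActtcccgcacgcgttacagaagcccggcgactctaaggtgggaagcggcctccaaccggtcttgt
Chac1: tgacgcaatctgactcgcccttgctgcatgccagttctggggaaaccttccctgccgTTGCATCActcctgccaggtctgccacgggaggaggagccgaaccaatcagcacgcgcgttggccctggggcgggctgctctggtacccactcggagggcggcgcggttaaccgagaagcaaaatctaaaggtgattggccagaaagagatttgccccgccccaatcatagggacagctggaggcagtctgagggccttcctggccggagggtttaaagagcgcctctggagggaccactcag
In Asns the element lies near the start of transcription, while in Chac1 it lies further upstream and on the opposite strand.

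**Figure D3:**
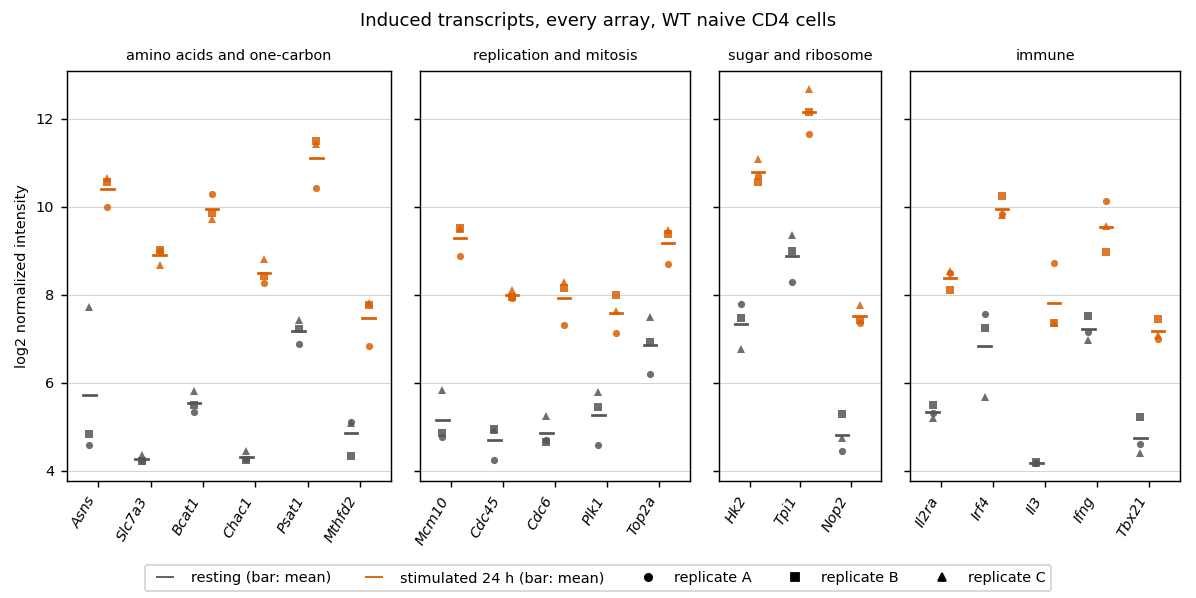
Log2 normalized intensity of 19 induced genes on each of the 3 resting (grey) and 3 stimulated (orange) arrays of WT naïve CD4 cells, with symbols for the replicates and bars for the group means. The stimulated values lie above the resting values for every gene drawn, and Asns on resting replicate C (7.73) stands above the other resting arrays.

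Cell cycle transcripts rose together, with 30 of 44 DNA replication genes and 30 of 36 mitosis genes called higher and none called lower. Their medians were 1.68 and 1.52. Mcm10, which helps to start the replicative helicase, went from 4.77, 4.86 and 5.83 to 8.87, 9.51 and 9.49, a difference of 4.14 ± 0.31 (adjusted p = 1.74e-09). Cdc45, a subunit of that helicase, went from 4.24, 4.96 and 4.93 to 7.92, 7.96 and 8.11 (3.29 ± 0.31), and Cdc6, which licenses origins, from 4.70, 4.66 and 5.25 to 7.33, 8.16 and 8.30 (3.05 ± 0.36). All 6 genes of the MCM2-7 helicase rose, from Mcm4 at 1.27 to Mcm7 at 2.58. Origin recognition genes behaved otherwise, with Orc2 at 0.06, Orc3 at 0.28, Orc4 at 0.11 and Orc5 at -0.17, none past the test. Orc6 rose by 1.79, and Orc1, detected on no resting array, at least 1.35-fold. Pcna, the polymerase clamp, was detected on no resting array and rose at least 2.16-fold.

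The mitosis list was led by Kif2c (2.35 ± 0.29), a motor that dismantles microtubules, the kinase Plk1 (2.32 ± 0.45) and Top2a (2.31 ± 0.33), which untangles DNA. Plk1 had 4.59, 5.46 and 5.79 at rest and 7.14, 8.01 and 7.64 after stimulation. Top2a had 6.19, 6.94 and 7.49 at rest and 8.69, 9.37 and 9.47 after stimulation. For both genes the groups did not overlap, and resting replicate C was the highest of the resting arrays. Cenpa, Ttk and Ube2c, all of mitosis, had differences of -0.25, 0.05 and 0.07 and did not pass, and the probes of Ttk and Ube2c were detected on none of the 6 arrays.

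Nucleotide synthesis genes rose in 23 of 31 cases, with a median of 1.51, among them Tyms (2.66 ± 0.36), which makes thymidylate, and Rrm2 (2.60 ± 0.49), a subunit of ribonucleotide reductase. Ctps, which makes CTP, rose by 2.53, while its paralog Ctps2 fell by 1.03. Dctpp1, a phosphatase that removes unwanted dCTP, and Dctd, the dCMP deaminase, were among the 25 largest rises, with 3.47 ± 0.31 and 3.29 ± 0.39. So were Cdca7 (3.42 ± 0.22), a chromatin protein of cycling cells, Fignl1 (3.23 ± 0.36) and Psmc3ip (3.16 ± 0.35), both of recombination.

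Among cyclins, kinases and their regulators 11 of 32 rose and 3 fell. The mitotic kinase Cdk1 rose by 2.74 ± 0.29, the G1/S factor E2f1 by 2.09 ± 0.19 and its partner Tfdp1 by 2.09. D-type cyclins moved apart. Ccnd2 had 10.91, 10.48 and 10.89 at rest and 11.61, 12.01 and 11.74 after stimulation (1.02 ± 0.21), whereas Ccnd1 fell from 7.84, 7.79 and 8.05 to 4.83, 4.47 and 4.83 (-3.18 ± 0.17) and Ccnd3 had a difference of -0.13. Cdkn1b, the inhibitor p27 of resting cells, fell from 8.74, 9.12 and 8.46 to 5.95, 5.54 and 5.68 (-3.05 ± 0.22, adjusted p = 9.08e-10).

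Chromatin genes of dividing cells followed, with 20 of 54 histone genes higher and 4 lower. H2ac11 rose by 2.72 ± 0.31, and the largest rises were in H2A genes. Near-identical histone genes can share a probe signal, so that single members are uncertain. H1f2, a linker histone, took the opposite course and was the fifth largest fall, from 11.90, 11.87 and 11.60 to 6.17, 5.15 and 5.49 (-6.19 ± 0.36, adjusted p = 3.90e-11). Of 22 DNA methylation and polycomb genes 7 rose and 1 fell. Uhrf1 and Dnmt1, which copy DNA methylation at the replication fork, rose by 2.85 ± 0.33 and 1.70, and Ezh2, the polycomb methyltransferase, by 2.11 ± 0.18, while its paralog Ezh1 had -0.87 and did not pass. Cbx7, a polycomb reader, fell by 2.24.

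The promoter windows of these lists were searched for the letters of cell cycle elements. The E2F letters TTTCCCGC or TTTGGCGC were in 11 of 37 windows of the replication list (29.7%), against 1 of 31 of the mitosis list (3.23%), 2.75% of all windows, 4.48% of the higher and 1.13% of the lower genes. The letters TTTGAA, the cell cycle homology region (CHR) of G2 and mitosis genes, were in 23 of 31 mitosis windows (74.2%), 6 of 37 replication windows (16.2%), 12.9% of all, 16.8% of the higher and 11.2% of the lower windows. The windows of Cenpa, Ttk and Ube2c, which did not pass, held the CHR letters too. The lists were chosen by known function, so that their shares describe the lists and not the response. The windows of Mcm7 (chr5:138171834-138172133, minus strand) and Cdc6 (chr11:98907901-98908200, plus strand) show the E2F letters in capitals, and those of Plk1 (chr7:122159185-122159484, plus strand) and Top2a (chr11:99024140-99024439, minus strand) the CHR letters, as examples of the 2 lists.
Mcm7: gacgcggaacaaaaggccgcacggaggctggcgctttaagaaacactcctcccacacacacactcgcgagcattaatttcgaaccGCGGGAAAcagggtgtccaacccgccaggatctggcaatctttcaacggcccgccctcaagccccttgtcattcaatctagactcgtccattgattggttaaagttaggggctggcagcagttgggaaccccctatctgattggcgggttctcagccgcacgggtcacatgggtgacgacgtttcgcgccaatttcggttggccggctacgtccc
Cdc6: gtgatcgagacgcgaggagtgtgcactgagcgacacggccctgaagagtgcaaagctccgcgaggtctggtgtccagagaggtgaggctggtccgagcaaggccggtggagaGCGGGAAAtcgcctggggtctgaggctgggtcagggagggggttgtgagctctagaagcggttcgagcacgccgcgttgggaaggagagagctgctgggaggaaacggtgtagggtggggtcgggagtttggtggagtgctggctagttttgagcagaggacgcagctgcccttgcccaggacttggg
Plk1: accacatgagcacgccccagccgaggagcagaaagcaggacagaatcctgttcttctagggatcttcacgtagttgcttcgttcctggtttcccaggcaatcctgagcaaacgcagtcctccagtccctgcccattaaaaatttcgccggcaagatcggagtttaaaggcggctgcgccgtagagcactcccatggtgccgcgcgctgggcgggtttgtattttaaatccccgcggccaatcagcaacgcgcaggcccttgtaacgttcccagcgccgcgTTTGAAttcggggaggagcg
Top2a: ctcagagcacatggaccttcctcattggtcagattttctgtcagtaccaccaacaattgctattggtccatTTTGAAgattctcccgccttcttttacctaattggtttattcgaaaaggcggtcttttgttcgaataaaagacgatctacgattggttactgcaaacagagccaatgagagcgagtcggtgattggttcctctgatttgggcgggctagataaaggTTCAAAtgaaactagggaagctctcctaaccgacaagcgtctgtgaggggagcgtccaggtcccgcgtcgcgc
The CHR letters stand near the start of transcription in Plk1, and Top2a holds 2 copies, the nearer one on the opposite strand. Shares of the other letters differed less. The E-box CACGTG was in 11.9% of the higher, 8.92% of the lower and 9.91% of all windows, and the AP-1 letters TGANTCA were in 4.58%, 5.87% and 5.56%.

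Genes of growth and protein synthesis rose widely. Of 59 genes of ribosome biogenesis and RNA polymerases I and III 40 were higher and none lower, with a median of 1.35. Nop2, an rRNA methyltransferase, went from 4.45, 5.29 and 4.74 to 7.36, 7.42 and 7.77 (2.69 ± 0.29). Among 72 mitochondrial ribosomal protein genes 47 were higher and none lower (median 1.12), led by Mrps6 (2.77 ± 0.22). Cytosolic ribosomal protein genes, by contrast, rose in 4 of 64 cases and had a median of 0.11. That list depended on the scaling, with 31 higher members after median centring and 17 lower members after Z-score normalization. Rps27a (2.86 ± 0.23), made as a fusion with ubiquitin, and Rps27l, a paralog, were 2 of its 4 rising genes.

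Translation factors rose in 20 of 51 cases and fell in 2, with a median of 0.72. Their largest rise was in Eif4ebp1, an inhibitor of cap-dependent translation, from 4.65, 5.63 and 5.40 to 8.51, 8.57 and 9.32 (3.57 ± 0.36). The list was chosen by symbol and holds 10 genes that are no initiation or elongation factors, such as the methyltransferase Eef1akmt1 (2.08) and Eef1e1 (2.40) of the synthetase complex. Without them 15 of 41 rose and 1 fell.

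Protein folding and turnover genes rose too. Of 35 chaperones 19 were higher and 2 lower. Hspd1, the mitochondrial chaperonin, went from 8.38, 7.62 and 7.41 to 10.16, 11.70 and 10.81 (3.09 ± 0.36), and the TRiC subunits Cct3, Cct4, Cct6a and Cct8 rose by 1.26 to 1.80. The heat-inducible Hspa1a fell from 6.78, 6.95 and 7.61 to values detected on no stimulated array, at least 5.51-fold, and its partner Bag3 fell by 1.18. Of 45 proteasome genes 21 were higher and none lower, led among true subunits by Psmb5 (2.31 ± 0.35). Psmc3ip and Psme3ip1 match the symbol but are no subunits, and without them 20 of 43 rose. Psmb8, Psmb9 and Psmb10, subunits of the immunoproteasome, had differences of -0.20, 0.51 and -1.00, and none passed both thresholds.

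In energy metabolism, 11 of 19 glycolysis genes were higher, with a median of 1.59. Hk2, a hexokinase, went from 7.79, 7.47 and 6.77 to 10.71, 10.56 and 11.07 (3.44 ± 0.30), and Tpi1, the triose phosphate isomerase, from between 8.28 and 9.35 to between 11.65 and 12.67 (3.27 ± 0.26). Their paralogs differed, as Hk1 had 0.27, and Hk3, an isoform known from myeloid cells, was detected on no stimulated array and fell at least 3.19-fold. Of 54 genes of the tricarboxylic acid cycle and respiratory chain 18 were higher and 1, Idh1, lower (-1.57), against 45 higher and none lower after median centring. Cholesterol and fatty acid synthesis genes rose in 12 of 30 cases, among them Acaca (2.19), Lss (2.14) and Sqle (1.78). Abcg1, which exports cholesterol, was detected on no stimulated array and fell at least 5.46-fold. The polyamine enzymes Srm and Odc1 rose by 3.11 ± 0.24 and 1.34, and Sat1, which breaks polyamines down, fell by 1.99.

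Cytokine transcripts rose in 15 of 34 cases and fell in 3, with a median of 0.96. They covered several T helper types. Il3 was detected on no resting array, with 4.19, 4.20 and 4.19, and had 8.73, 7.36 and 7.35 after stimulation, at least 7.77-fold (adjusted p = 5.94e-07). Ifng, of Th1 cells, went from 7.15, 7.52 and 6.97 to 10.12, 8.96 and 9.57 (2.34 ± 0.40). Il4, of Th2 cells, went from 7.07, 7.22 and 6.51 to 10.27, 9.27 and 9.40 (2.71 ± 0.49). In all 3 of these genes stimulated replicate A was the highest. Il17f, of Th17 cells, was detected on no resting array and rose at least 4.45-fold, and Il17a rose by 1.07 ± 0.39 (adjusted p = 0.0296). Tnf did not pass, with 7.52, 7.53 and 6.86 at rest and 7.58, 7.17 and 6.92 after stimulation, and the Cd40lg probe was detected on none of the 6 arrays. Ccl5, a chemokine kept by memory cells, and Ltb fell by 2.40 ± 0.42 and 2.33 ± 0.35. Il2 is not analysed here.

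Among 41 early activation factors 9 rose and 9 fell, against 14 and 6 after median centring. Irf4, a factor of activated lymphocytes, went from 7.58, 7.25 and 5.68 to 9.83, 10.24 and 9.80 (3.12 ± 0.40), a difference of 2.54 without resting replicate C. Tbx21, the Th1 factor, rose by 2.42 ± 0.28, Egr2 by 2.23 ± 0.40, Batf by 1.79 ± 0.24 and Myc by 1.42 ± 0.31. The AP-1 genes of the immediate early class were high at rest and low after 24 hours. Fos fell from 11.23, 11.11 and 11.46 to 5.57, 5.59 and 5.41 (-5.75 ± 0.34, adjusted p = 5.34e-11). Fosb fell from 10.15, 8.76 and 7.82 to values detected on no stimulated array, at least 19.1-fold. Junb fell by 3.28 ± 0.32, Jun by 2.93 ± 0.30 and Jund by 2.24, and the phosphatase gene Dusp1, of the same early class, from between 11.59 and 11.74 to between 6.77 and 7.03 (-4.73 ± 0.20). Gata3, the Th2 factor, had a difference of 0.69 ± 0.18, under 2-fold.

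Of 38 surface receptors of activation 7 were higher and 8 lower, against 11 higher and 1 lower after median centring. Il2ra, the high-affinity IL-2 receptor chain CD25, went from 5.32, 5.49 and 5.21 to 8.49, 8.10 and 8.54 (3.04 ± 0.20, adjusted p = 2.48e-10). Lag3, an inhibitory receptor, rose by 2.36 ± 0.43, and Pdcd1lg2, a PD-1 ligand, was detected on no resting array and rose at least 3.53-fold. Tnfrsf4 (OX40) rose by 2.20 ± 0.77, yet its replicates were spread, with 6.03, 8.41 and 7.73 at rest and 7.97, 10.30 and 10.51 after stimulation, and the groups overlapped. Cd69, an early activation marker, was high at rest, with 12.10, 11.99 and 11.52, and fell to 10.58, 10.67 and 10.08 (-1.43 ± 0.29). Icos fell by 1.11 ± 0.35, and Nt5e, the CD73 ecto-enzyme, by 2.86 ± 0.24. Ctla4 and Cd44 did not pass, with -0.84 and -0.45.

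The naïve T cell quiescence and homing list had the lowest median of the 36 gene lists, marker sets aside, with 29 of 45 genes lower and 1 higher. Klf2, the factor that maintains quiescence and the exit from lymph nodes, fell from 11.01, 11.12 and 10.88 to 5.63, 5.25 and 4.99 (-5.71 ± 0.21, adjusted p = 2.64e-14). Txnip, which restrains glucose uptake, fell from 10.94, 11.14 and 10.82 to 5.25, 5.59 and 6.11 (-5.32 ± 0.19), and Tsc22d3 (GILZ), induced by glucocorticoids and FOXO factors, from 10.58, 10.85 and 11.83 to 6.09, 5.64 and 5.97 (-5.18 ± 0.27). All replicates of the 3 genes were apart. Pik3ip1, an inhibitor of PI3 kinase, was detected on no stimulated array and fell at least 10.1-fold.

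Homing and survival receptors of the same list fell as well. Il7r went from 10.04, 9.79 and 10.76 to 6.78, 6.48 and 6.80 (-3.51 ± 0.27). Cxcr4 fell by 3.52 ± 0.49, whereas Ccr7, the lymph node homing receptor, had a difference of -0.91 ± 0.39 (adjusted p = 0.0644). The factors Tcf7 and Lef1 fell by 1.76 ± 0.29 and 1.30 ± 0.26, while Foxo1 had -0.56, Bach2 -0.39 and Satb1 -0.17, none past the test. Slfn2 was the one member that rose, by 1.02. After median centring 19 members were lower and 1 higher, and the median was -0.60.

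**Figure D4:**
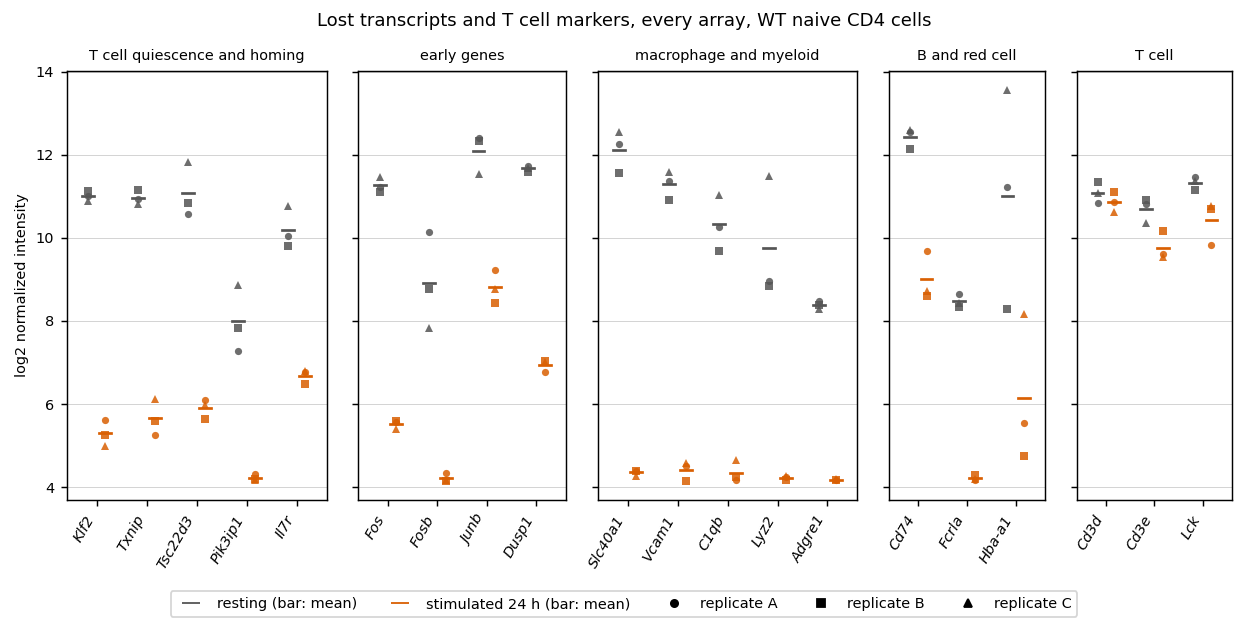
Log2 normalized intensity of 17 genes that fell and of 3 T cell markers on each of the 3 resting (grey) and 3 stimulated (orange) arrays of WT naïve CD4 cells, with symbols for replicates and bars for means. The macrophage and myeloid genes drop to the background of about 4.2, the quiescence genes fall to 6.80 or lower, and Cd3d overlaps between the groups.

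Of 36 tested KLF, RGS and DUSP genes 14 were lower and 2 higher, with falls in Klf13 (-2.69), Klf6 (-2.53), Klf3 (-2.35) and Dusp10 (-2.65) and a rise in Rgs16 (1.94), against 7 lower and 4 higher after median centring. GIMAP GTPases, which support survival of resting T cells, fell in 4 of 8 cases, led by Gimap6 (-3.05 ± 0.24), and their median of -1.02 turned to 0.02 after median centring. Of 34 genes of T cell receptor signaling 10 fell and none rose, and the median of -0.88 turned to 0.01 after that centring. Dgka, a brake on diacylglycerol signaling, fell from 11.44, 11.23 and 11.05 to 8.28, 8.30 and 8.11 (-3.01 ± 0.18), and the difference of -2.08 ± 0.29 in Cd3g passed, while Cd3e had -0.93 and Lck -0.89 and did not reach 2-fold.

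Cytokine receptors and their signaling genes fell in 12 of 36 cases and rose in 6, with a median of -0.34 that turned to 0.17 after median centring. Besides Il7r the falls included Il18r1 (-3.32 ± 0.24), Ifngr1 (-3.14 ± 0.32), Il6ra (-2.83) and Tgfbr2 (-2.33), the receptors of IL-18, interferon-gamma, IL-6 and TGF-beta. The rises besides Il2ra were Il12rb1 (2.20), Cish (2.03), Socs2 (1.47), Stat5a (1.05) and Il2rb (at least 1.50-fold), most of them parts or targets of IL-2 and IL-12 signaling. Integrin, adhesion and actin genes fell in 9 of 29 cases, among them Itgb7 (-2.93 ± 0.18) of gut homing and Itgae (-2.85), and rose in 4, which were the tubulin genes Tuba1b, Tubb5 and Tubb6 and the tubulin-binding Stmn1. Their median of -0.63 turned to 0.07 after median centring. Of 14 chemokine receptors 5 fell and Ccr8 rose by 1.44, against 2 in each direction after median centring.

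Among survival genes, Bcl2l1 (Bcl-xL) rose from 4.72, 4.35 and 5.26 to 7.18, 6.60 and 6.84 (2.10 ± 0.27), while Bcl2 fell by 1.31. The death gene Bbc3 (Puma) fell by 3.16 ± 0.29, and Pmaip1 by 1.20. Of 22 apoptosis regulators 3 rose and 4 fell, and of 19 p53 target genes 3 rose and 4 fell, with Cdkn1a at 1.12 ± 0.47 (adjusted p = 0.0600). In the SWI/SNF family, to which BAF180 belongs, the ATPase Smarca2 fell from 10.37, 10.42 and 10.08 to 7.66, 7.54 and 7.32 (-2.78 ± 0.24), Smarcb1, Actl6a and Smarcc1 rose by 1.48, 1.17 and 1.01, and 13 of 17 were not called. Pbrm1, which encodes BAF180, had 8.20, 8.72 and 8.69 at rest and 8.29, 8.76 and 8.67 after stimulation, a difference of 0.04 ± 0.23 (adjusted p = 0.915). Of 36 interferon-stimulated genes 4 were higher (Gbp2 by 2.86 ± 0.24) and 4 lower (Ifit3 by -3.26 ± 0.35). Of 190 zinc finger genes 8 were higher and 10 lower. After median centring the higher and lower members were 6 and 1 for apoptosis regulators, 5 and 2 for p53 targets, 8 and 2 for interferon-stimulated genes and 25 and 1 for zinc finger genes.

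Most of the largest falls were transcripts known from cells other than T cells. Slc40a1, the iron exporter of red pulp macrophages, had 12.25, 11.55 and 12.55 at rest and was detected on no stimulated array, with 4.40, 4.39 and 4.27, at least 177-fold lower (adjusted p = 5.84e-17). Vcam1, an adhesion receptor of macrophages and stroma, went from 11.36, 10.91 and 11.58 to 4.50, 4.16 and 4.57 (-6.88 ± 0.16, adjusted p = 1.88e-17, the lowest of all). Fcna, a ficolin, fell at least 106-fold. Of the complement genes, C1qb had a difference of -5.98 ± 0.21, and C1qc fell at least 35.8-fold. For each of these genes all 3 resting arrays were far above all 3 stimulated arrays.

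Other macrophage genes among the 25 largest falls were Lyz1 (-6.44 ± 0.40) and Lyz2 (at least 34.5-fold) of lysozyme, the mannose receptor Mrc1 (at least 32.5-fold), Spic, the factor of red pulp macrophages (-5.25 ± 0.36), Trf, transferrin (at least 30.5-fold), the Fc receptor genes Fcgr4 (at least 23.4-fold) and Fcer1g (-4.69 ± 0.35), and Cfp, properdin (-5.66 ± 0.39). Of the 11 myeloid markers tested 10 were lower and none higher, with a median of -2.89, and they stayed 10 of 11 after median centring. Adgre1, Lyz2, Tyrobp, Cd14 and S100a9 were detected on no stimulated array. Hba-a1 fell from 11.21, 8.28 and 13.55 to 5.54, 4.76 and 8.17 (-4.86 ± 0.96), a difference of -3.59 without resting replicate C, and 3 of the 7 red cell and platelet markers were lower. The SE of Hba-a1 comes from the spread shared by all arrays, while its SDs were 2.64 at rest and 1.79 after stimulation. The B cell markers Fcrla, with 8.64, 8.34 and 8.42 at rest, and Cd74, with 12.55, 12.14 and 12.60, fell to 4.18 to 4.29 and to 8.61 to 9.67, and 6 of 11 B cell markers were lower. The part of these cells in other falls was not tested. Lysosome genes, with 11 of 34 lower and 1 higher, included Ctsh (-3.20 ± 0.36) and Ctsb (-1.98). Their split depended on the scaling, with 7 higher and 1 lower after median centring and a median of -0.40 in one and -0.012 in the other.

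Markers of T cell subsets were mixed. Of 16 memory T cell markers 7 were lower and none higher, led by Il18r1 and Ahnak (-2.81). Of 11 markers of regulatory T cells 4 were lower and 2, Il2ra and Tnfrsf4, higher, against 1 lower and 3 higher after median centring. Foxp3 had 8.43 to 9.05 at rest and 6.94 to 7.84 after stimulation, and fell by 1.36. The CD8 marker Cd8b1 was detected on all 6 arrays, with 8.23, 8.50 and 8.97 at rest and 7.74, 7.49 and 8.16 after stimulation. Of 6 NK cell markers 2 were lower, Klrd1 by 2.57 and Prf1 by 1.00, the latter near 0 after median centring.

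Several of the 25 largest rises fall outside the lists. Ido1, which degrades tryptophan, went from values detected on no resting array to 7.84, 7.51 and 8.63, at least 8.77-fold. Sema7a, a membrane semaphorin, and Crabp2, which carries retinoic acid, were detected on no resting array either and rose at least 8.53-fold and 6.52-fold. Bdh2, a dehydrogenase of iron and ketone metabolism, rose at least 8.33-fold, Mfsd2a, a lipid transporter, by 3.48 ± 0.28, the peptidase gene Thop1 by 3.13 ± 0.23 and Tg, which encodes thyroglobulin, at least 7.75-fold. Among the largest falls outside the lists were LOC381924, a predicted locus (at least 42.7-fold), Epb41l3 (at least 28.1-fold), the glucocorticoid-activating enzyme gene Hsd11b1 (-4.74 ± 0.35) and Frat2 (-4.70 ± 0.38), a regulator of WNT signaling. Without resting replicate C the difference of Frat2 was -5.33.

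The targeted gene checks the labels. Pbrm1 had 7.88, 7.28 and 7.41 on the resting and 6.36, 7.06 and 7.41 on the stimulated KO arrays, all below every WT array, and whether its probe lies in the deleted exon is not known here. In naïve cells without BAF180, on their own 6 arrays, 1154 genes were higher and 1162 lower. Of the WT calls 1014 higher and 981 lower genes were called in the same direction there and none in the opposite one, and all 1258 higher and 1149 lower genes had the same sign. All 25 largest rises and all 25 largest falls were called in both genotypes. The difference between the 2 responses was tested for each gene, and 1 gene passed, which is 0.00960% of the genes tested. This gene, 4930486L24Rik, had 6.11, 5.86 and 5.49 in resting WT cells and was detected on no stimulated WT array, at least 2.25-fold lower, against a difference of -0.22 in KO cells (adjusted p = 0.290). The fitted difference of the responses was -1.41 (adjusted p = 0.0433), a value that takes in signals at background and is no bound. The next gene, Car11, had an adjusted p of 0.406. At an unadjusted p below 0.05 there were 237 of the 10418 genes, a share below the 0.05 that this threshold passes when no gene differs. With the replicate letter as a block, within a genotype or shared by both, or with other normalizations, no gene passed. Over genes the WT and KO differences had a Pearson r of 0.966, a description across genes, which are not independent replicates.

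**Figure D5:**
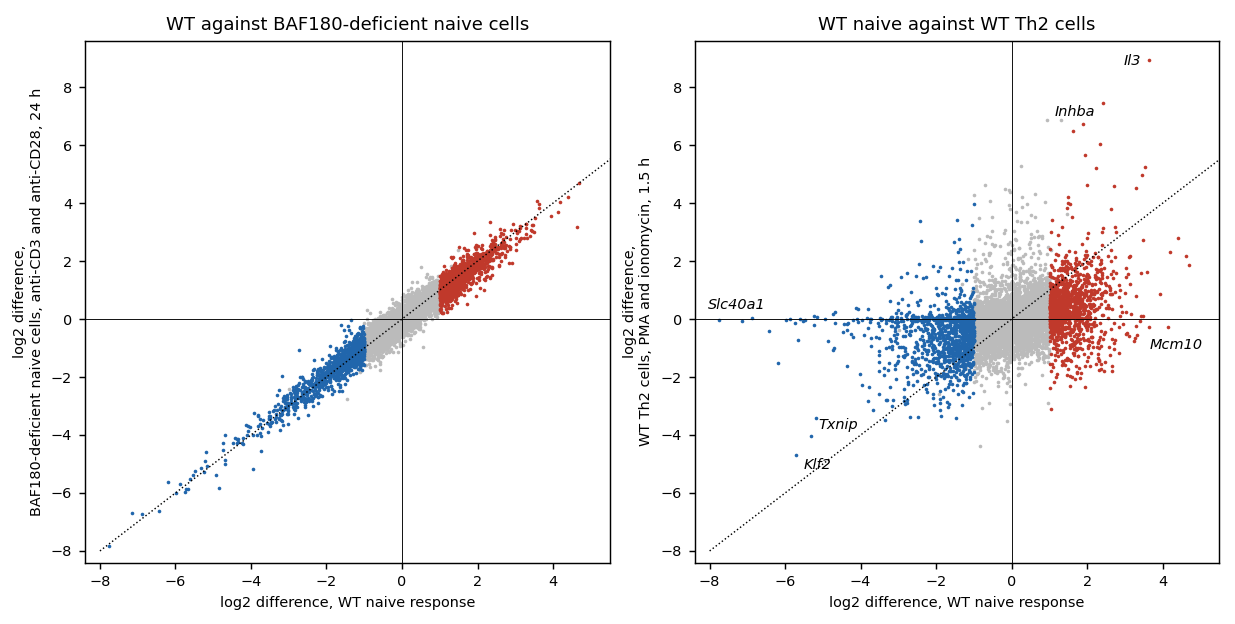
Log2 difference of each tested gene in WT naïve cells (x axes) against that in BAF180-deficient naïve cells (left) and in WT Th2 cells treated with PMA and ionomycin for 1.5 h (right), coloured by the call in WT naïve cells, with the line of equal values. The left points follow the line (r of 0.966), while on the right many genes that fell in naïve cells, such as Slc40a1, lie at 0, and Il3 and Inhba lie far above the line.

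WT Th2 cells treated with PMA and ionomycin differed in agent, time and cell type, so the 2 responses are set side by side. In Th2 cells 609 genes were higher and 743 lower. Of these 270 and 344 were also called in the same direction in naïve cells, 74 were higher in naïve and lower in Th2 cells and 35 the reverse. The difference of the responses passed for 2722 genes, 26.1% of those tested. All 25 largest falls were among them, each with the larger response in naïve cells, and 15 of the 25 had a mean below 5 in resting Th2 cells, near background. Of the 25 largest rises 23 were among them, 19 with the larger response in naïve cells. Both sets were picked by the size of the naïve response, which is part of the tested difference, so these counts follow in part from that choice. Slc40a1, for example, had a difference of -0.04 in Th2 cells. Klf2 and Txnip fell in both, with -5.71 and -5.32 in naïve and -4.68 and -4.04 in Th2 cells.

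The cell cycle genes parted between the 2 responses. Mcm10 had -0.29 in Th2 cells (difference of responses 4.43, adjusted p = 2.85e-07). Its mean was already 8.47 in resting Th2 cells, against 5.15 in resting naïve cells. Resting means also differed for Cdc45, with 7.13 in Th2 and 4.71 in naïve cells, and for Tpi1 of glycolysis, with 11.81 and 8.88. The part of these starting levels in the difference of responses was not tested. Plk1 and Top2a, which rose in naïve cells, fell by 1.45 and 1.77 in Th2 cells, and the difference of responses was 3.77 (adjusted p = 0.000164) and 4.07 (adjusted p = 1.77e-06). The median of the mitosis list was 1.52 in naïve and -1.34 in Th2 cells, and that of glycolysis was 1.59 and -0.04. Ribosome biogenesis was near in both, with 1.35 and 1.16. The lists of early activation factors and of cytokines had higher medians in Th2 cells, with -0.02 in naïve and 1.11 in Th2 cells for the former. Single immediate early genes were mixed. Fos, Fosb and Dusp1, which fell in naïve cells, had -0.15, 0.24 and 0.18 in Th2 cells and were not called there. Junb fell by 3.28 in naïve cells and rose by 1.11 in Th2 cells (difference of responses -4.40, adjusted p = 3.68e-07), and Cd69 fell by 1.43 and rose by 2.30. Il3 had a log2 difference of 3.63 in naïve and 8.95 in Th2 cells (-5.32, adjusted p = 1.10e-06), and the median of the cytokine list was 0.96 and 3.46. Tnf, with -0.08 in naïve cells, had 4.46 in Th2 cells.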

How the data were processed

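RNA of WT and BAF180-deficient naïve and Th2 cells was hybridized to Illumina mouse BeadChips. The authors deposited AVG_Signal intensity values per probe, not normalized and without background subtraction, together with a detection p-value per probe. Per the submitters' processing notes the values were exported with GenomeStudio 1.6.0. Here intensities were background corrected, quantile normalized and set to log2 with neqc of limma 3.58.1 in R 4.3.3 (offset 16). The fit used 14246 of 25697 probes, those that any array detected at a p-value of 0.02 or lower. Probes were named through RefSeq tables by gene ID, accession or symbol. The brightest probe stood for each of 10418 genes. A fit of 8 group means to 24 arrays (lmFit, eBayes) gave two-sided p-values, adjusted by Benjamini-Hochberg over all kept probes. A gene was called at an adjusted p below 0.05 and a 2-fold difference, and differences between responses at an adjusted p below 0.05. A gene detected on no array of the lower group is given as at least a fold, from the lowest detected signal of each array. The number of arrays limits the precision.

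Replicates of a group correlated at 0.949 or more, and no pair was a duplicate. The fits were tested on simulated data. Genes named are the 25 largest rises and falls with separate arrays, examples of gene lists, the lowest adjusted p of the response differences, and Pbrm1. The members and lists were chosen with earlier results of these data known. Alternatives covered normalization, offset, filters, probe choice, the replicate block, array weights and each replicate left out. A few tested genes are not reported here.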

Additional observations from a re-analysis of the deposited data

Results flagged for a closer look

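The response of 1 gene, 4930486L24Rik, differed between WT and BAF180-deficient naïve cells, by a fitted -1.41 on the log2 scale that takes in signals at background on the stimulated WT arrays. Between naïve and Th2 cells, the genes with the lowest adjusted p for the difference of responses (naïve minus Th2) were Vcam1 (-6.91), Slc40a1 (-7.72), C1qc (-5.61), Inhba (-5.93), LOC381924 (-5.90), Tgfbi (-3.75), C1qb (-5.93), Mrc1 (-5.46), Epb41l3 (-5.25) and Fcna (-7.07). Inhba, an activin subunit, rose by 6.88 in Th2 cells and had 0.95 in naïve cells, under the 2-fold threshold. The agents, times and cell types differed between these responses and cannot be told apart.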

How the results depend on the processing

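The 50 genes with the largest rises and falls kept their call and direction under every alternative run. The counts of 1258 higher and 1149 lower genes moved by over 1.5 times under 5 settings. They were 811 higher (796 lower) with quantile normalization and no background correction, 2492 and 366 with median centring, 750 and 750 with an offset of 50, and 2424 and 2280 with no fold threshold. They were 590 and 633 with the 4 thresholds of the study's methods set on the differences and p-values of the fit used here. The normalization and tests of the study were not repeated, and every gene met the threshold on intensity. Leaving out 1 replicate gave 1165 to 1312 higher and 1104 to 1238 lower genes. Median centring turned the median of 6 lists and marker sets, to 0.17 for cytokine receptors, 0.016 for GIMAP genes, 0.074 for integrins, 0.0069 for T cell receptor signaling, 0.48 for T cell markers and 0.26 for the CD8 marker, while the median of all genes moved to 0.25. The difference of responses passed for 1213 genes between naïve and Th2 cells with median centring, in place of 2722, and for 2300 to 2987 genes with 1 replicate left out. Between WT and KO it passed for 0 genes with quantile normalization alone, Z-scores, median centring, normalization or fit of the compared arrays alone, an offset of 50, either other detection filter, the replicate block or a replicate block shared by WT and KO, in place of 1, and for 0 to 3 genes with 1 replicate left out. Median centring also turned the sign of single genes, of which Prf1 alone had been called, in Bach2 (0.73), Ccnd3 (1.04), Cd3d (0.87), Cd3e (0.22), Cd4 (0.0079), Cd44 (0.51), Cd8b1 (0.26), Cenpa (0.91), Ctla4 (0.11), Ddit3 (0.55), Farsa (0.46), Foxo1 (0.43), Lck (0.23), Orc5 (0.79), Prf1 (0.0021), Psmb10 (0.13), Psmb8 (0.59), Satb1 (0.94) and Tnf (0.86). Z-scores turned Orc2 (-0.11), Orc5 (0.090), Tnf (0.20) and Ttk (-0.11). Other probe or array weighting turned Ccnd3 (0.0043, mean of probes), Ccnd3 (0.13, array weights) and Pbrm1 (-0.016, array weights). With 1 replicate left out the sign was not fixed for Ccnd3 (-0.36 to 0.042), Farsa (-0.35 to 0.085), Ms4a1 (-0.0702 to 0.0055), Orc2 (-0.024 to 0.20), Pbrm1 (-0.13 to 0.18), Satb1 (-0.27 to 0.021), Tnf (-0.30 to 0.074) and Ttk (-0.0015 to 0.085), none of them called. Of the named genes, 37 lost their call in at least 1 alternative, 18 of them with 1 replicate left out: Il17a, Slfn2, Tubb6, Tnfrsf4, Il2rb, Icos, Stat5a, Ctps2, Smarcc1, Ccnd2, Stmn1, Prf1, Bag3, Lef1, Tubb5, Odc1, Orc1 and Tars. The difference of responses of 4930486L24Rik missed the threshold in 21 alternatives. The cause of these changes was not tested. With the replicate letter as a block 1263 genes were higher and 1165 lower. Between resting and stimulated WT arrays, deviations of the same letter correlated at -0.01, 0.05 and 0.10. These values cannot show whether arrays of the same letter came from the same mouse, since other differences between arrays can outweigh it. The methods describe the WT and KO RNAs as pairs for Th2 cells. A figure legend of the study, on counts in each cell type, names 3 pairs of WT and KO mice as the source. Between naïve WT and KO arrays, deviations of the same letter correlated at 0.16, -0.01 and 0.47 at rest and 0.67, 0.27 and 0.38 after stimulation. The main test of the WT and KO responses did not use such pairs, and the block shared by both genotypes was added after seeing the data. Genes near the background of the arrays have differences that are bounded by it.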
